A study of Arabidopsis thaliana with 12 samples.

Results

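The transcriptome of UV-C treated jac1 rosettes was compared with that of UV-C treated wild-type rosettes of Arabidopsis thaliana, gene by gene, over the nuclear protein-coding genes. The comparison took the 3 libraries labelled jac1 UV-treated and the 3 labelled wild type UV-treated, 6 of the 12 libraries of the series, and 20009 of 27427 nuclear protein-coding genes had enough reads to be tested. The UV-C treated jac1 plants carried the jac1 mutation (the jac1-1 allele) in the Columbia-0 gl1 (Col-0 gl1) background, and the UV-C treated wild-type plants were Col-0 gl1, so that both lack a functional GL1, the MYB factor that starts trichome formation. Plants of both genotypes were 4 weeks old, were grown in an 8 h photoperiod, received 100 mJ per cm2 of UV-C from lamps emitting at 250 to 258 nm, and were harvested 30 min later as whole rosettes, with at least 4 rosettes pooled in each of 3 biological replicates. The other 6 libraries, 3 of jac1 and 3 of wild type, came from non-treated (NT) plants and entered the fit. The labels give no hour of harvest, and jac1 was represented by 1 allele.

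JAC1 encodes an auxilin-like J-domain protein that chloroplasts need to gather at the cell surface in weak light. UV-C is strongly absorbed by DNA and by components of the chloroplast, and is used in leaves as a source of photooxidative stress. Leaves that run short of sugar switch on the dark-inducible genes of amino acid breakdown and asparagine synthesis, whereas leaves that lose water or are chilled switch on dehydrins and other protective proteins through abscisic acid (ABA) response factors, which bind the G-box, and through the CBF factors, which bind the C-repeat (CRT).

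JAC1 (AT1G75100, chromosome 1, 28190740 to 28194068, minus strand, TAIR10.1) was itself transcribed in both genotypes. It had 171, 184 and 170 CPM (counts per 1000000 reads, scaled by TMM factors) in UV-C treated jac1, against 130, 155 and 150 CPM in UV-C treated wild type. All jac1 values lay above all wild-type values, and the log2 fold change of 0.27 (SE 0.08) did not pass the test and was 0.01 with library size alone (adjusted p = 0.0151 with TMM, edgeR quasi-likelihood test, Benjamini-Hochberg). The files do not show what the jac1-1 lesion does to the transcript, so this level does not check the genotype labels.

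After UV-C, 507 genes were higher in jac1 than in wild type (2.53% of those tested) and 338 were lower (1.69%), at an adjusted p under 0.01 and an absolute log2 fold change over 1. Together these differentially expressed genes (DEGs) made up 4.22% of the genes tested. The median log2 fold change was 1.37 among the higher genes and -1.31 among the lower genes, against -0.01 over all genes tested. Of the higher genes, 85 differed more than 4-fold and 17 more than 8-fold, and of the lower genes, 50 and 15 did. The 3 jac1 libraries lay above the 3 wild-type libraries for 504 of the 507 higher genes and below them for 337 of the 338 lower genes; over all genes tested, the 3 lay above for 26.9% and below for 24.0%. In 24 of the called genes 1 of the groups had 3 or fewer reads in each library, and the fitted fold change of such a gene depends on the prior count.

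The balance of higher and lower genes depended on how the libraries were scaled. With TMM factors, 60.0% of the DEGs were higher in jac1. With DESeq2 size factors 484 were higher and 369 lower (56.7% higher), with upper quartile factors 413 and 486 (45.9%), and with library size alone 293 and 986 (22.9%). The median log2 fold change over all genes was -0.04 with size factors, -0.11 with upper quartile factors and -0.28 with library size alone. Under the last of these a gene at the centre of the distribution has a negative value, though it is short of the fold minimum. Of the 1279 genes called with library size alone, 631 were among the 845 called with TMM. The TMM factors were 0.833 to 0.865 in UV-C treated jac1 and 1 to 1.05 in UV-C treated wild type. Beside this, 20 genes of the light-harvesting antenna took 14.9 to 16.1% of the nuclear protein-coding reads in UV-C treated jac1 and 9.8 to 10.8% in UV-C treated wild type. The 100 genes with the most reads summed over all 12 libraries took 32.5 to 34.5% and 27.2 to 28.7%. No spike-in values were used here, so a shift of all transcripts and a shift of these abundant ones cannot be told apart, and every count below is relative to the TMM scale.

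**Figure D1:**
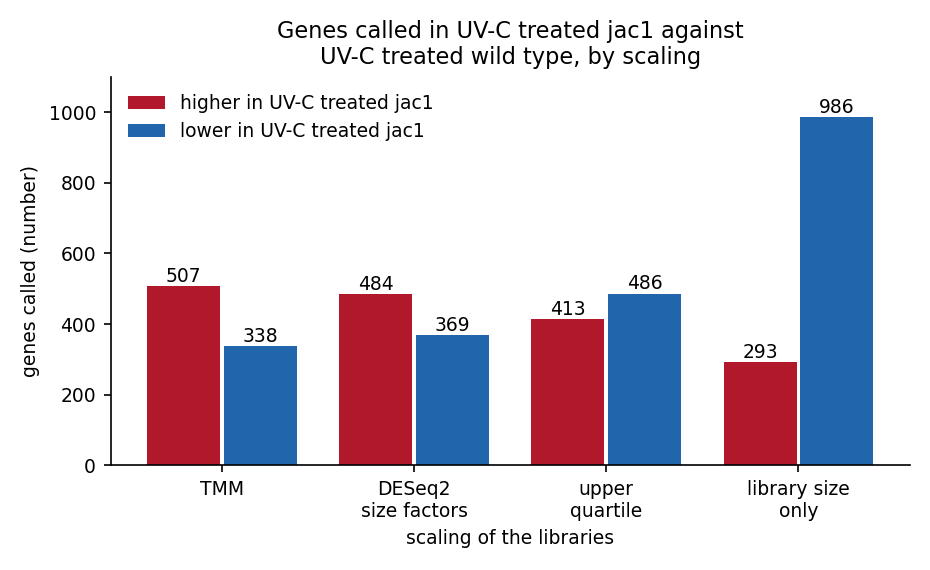
Genes higher and genes lower in UV-C treated jac1 than in UV-C treated wild type under each scaling of the libraries (bars, number of genes from 0, with the number printed above each bar). With TMM 507 genes were higher and 338 lower; with library size alone 293 were higher and 986 lower.

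The libraries held 21939540 to 27194762 counted reads in UV-C treated jac1 and 20897905 to 24461667 in UV-C treated wild type. Nuclear protein-coding genes took 90.6 to 91.8% of them in UV-C treated jac1 and 88.8 to 89.5% in UV-C treated wild type, but 99.1 to 99.2% in the 6 NT libraries, which held far fewer chloroplast and ribosomal RNA reads; the part of this gap in any value that sets treated against NT libraries was not tested. Of the 6 rosette leaf markers, among them RBCS and RCA of carbon fixation, none was called by the edgeR quasi-likelihood test or the DESeq2 Wald test, though 5 had an unadjusted p under 0.05. Here and below, such counts stand beside 5643 of the 20009 genes that had an adjusted p under 0.01 with no fold minimum. Of 4 trichome markers none was called by the edgeR quasi-likelihood test (3 at an unadjusted p under 0.05), while GL3, at -1.5, was called lower by the likelihood ratio test and with library size alone, and GL1 stayed under 1 CPM in all 6 treated libraries. Of 5 root markers 2 were tested and not called by the same test (1 at an unadjusted p under 0.05), while TIP2;3, under 1 CPM in every treated library, was called higher by the likelihood ratio test (2.61) and without jac1 replicate 1 (3.09). Of the flower and pollen markers, 4 of the 5 tested were called lower in jac1 after UV-C and without UV-C (1.69% and 0.915% of all genes were). They are given with the lower genes.

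Promoter motifs were searched on both strands, from 250 bases before to 50 after the annotated start (RefSeq, TAIR10.1, 20006 of the 20009 genes). The G-box CACGTG, bound by ABA response factors and by PIF factors, was in 75 of the 507 higher promoters (14.8%) and in 24 of the 338 lower promoters (7.1%), against 8.87% of all promoters. The evening element AAAATATCT, bound by clock MYB factors, was in 6.11% of higher and 4.73% of lower promoters, against 3.0% of all. The CRT core CCGAC was in 20.7% of higher and 10.4% of lower promoters, against 16.1% of all. The W-box of WRKY factors (TTGACC or TTGACT) was in 31.2% of higher and 30.5% of lower promoters against 32.6% of all, and the heat shock element GAANNTTC was in 11.2% and 10.7% against 11.4%. These are counts of letters, with no test and no evidence of binding. Within the lists described next, a G-box was in 1 of 7 low-energy and dark-induced, 3 of 11 CBF and cold and 3 of 17 ABA promoters, and a CRT core in 1, 3 and 4 of them. The 250 bases before the start are shown for 6 higher genes, chosen because they hold a marked motif and so not typical of their lists: the cold- and drought-induced RD29A, COR15A, GOLS3 and RD20, the transcription factor gene ERF53, and the asparagine synthetase gene ASN1. Each reads 5′ to 3′ along its gene, with the G-box, the CRT core and the evening element in capitals on whichever strand they lie.
RD29A, chr5:21240467-21240716, plus strand: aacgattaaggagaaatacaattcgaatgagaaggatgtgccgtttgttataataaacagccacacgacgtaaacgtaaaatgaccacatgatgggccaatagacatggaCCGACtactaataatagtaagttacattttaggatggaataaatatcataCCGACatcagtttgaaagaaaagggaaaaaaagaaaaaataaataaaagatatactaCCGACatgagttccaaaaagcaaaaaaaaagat
COR15A, chr2:17712331-17712580, minus strand: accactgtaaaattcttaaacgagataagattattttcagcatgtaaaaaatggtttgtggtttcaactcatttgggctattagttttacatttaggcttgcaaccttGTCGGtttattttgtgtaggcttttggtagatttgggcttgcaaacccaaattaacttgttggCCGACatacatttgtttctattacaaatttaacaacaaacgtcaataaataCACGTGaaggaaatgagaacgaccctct
GOLS3, chr1:3019389-3019638, plus strand: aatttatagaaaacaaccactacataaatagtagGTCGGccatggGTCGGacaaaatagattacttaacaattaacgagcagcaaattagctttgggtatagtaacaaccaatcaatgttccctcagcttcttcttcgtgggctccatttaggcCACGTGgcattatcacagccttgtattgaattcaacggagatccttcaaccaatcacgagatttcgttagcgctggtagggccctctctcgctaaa
RD20, chr2:14146556-14146805, minus strand: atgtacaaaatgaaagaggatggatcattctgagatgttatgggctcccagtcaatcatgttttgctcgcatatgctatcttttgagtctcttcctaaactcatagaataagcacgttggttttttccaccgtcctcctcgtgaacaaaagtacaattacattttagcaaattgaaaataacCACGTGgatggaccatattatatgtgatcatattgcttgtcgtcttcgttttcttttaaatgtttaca
ERF53, chr2:8985709-8985958, plus strand: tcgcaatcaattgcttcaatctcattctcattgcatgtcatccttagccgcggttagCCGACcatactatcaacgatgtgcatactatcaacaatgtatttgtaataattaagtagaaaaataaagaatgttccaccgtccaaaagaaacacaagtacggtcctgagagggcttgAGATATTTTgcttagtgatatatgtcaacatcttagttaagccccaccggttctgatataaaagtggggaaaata
ASN1, chr3:17441432-17441681, minus strand: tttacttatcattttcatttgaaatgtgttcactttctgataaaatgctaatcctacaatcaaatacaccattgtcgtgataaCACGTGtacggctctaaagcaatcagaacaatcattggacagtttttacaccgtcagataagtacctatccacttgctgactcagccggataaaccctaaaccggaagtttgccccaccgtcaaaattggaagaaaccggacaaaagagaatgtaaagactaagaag

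RD29A held 3 CRT cores, COR15A and GOLS3 each held 2 CRT cores and a G-box, ERF53 held a CRT core and an evening element, and RD20 and ASN1 each held a G-box within these 250 bases.

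Genes of the low-energy and dark-induced list were higher in UV-C treated jac1. This list, like the others, was chosen with earlier results of these data known. Its number of calls is therefore fixed in part by that choice. All 7 genes tested of the low-energy and dark-induced list were called higher (2.53% of all genes were), with a median log2 fold change of 1.91, against -0.01 over all genes, and all 7 were also called with library size alone. Without UV-C the median of the same 7 was 0.57, and 1 of them, ASN1, was called higher, at 1.41. Outside the list, the dark-inducible DIN10 was at 0.88 after UV-C and not called, and DIN11 was called higher. SEN1, a senescence-associated gene that is a standard marker of dark-treated leaves, had 1100, 964 and 804 CPM in UV-C treated jac1, against 126, 129 and 137 CPM in UV-C treated wild type. The groups were far apart, with a log2 fold change of 2.87 (SE 0.13, adjusted p = 5.21e-09, edgeR quasi-likelihood test, Benjamini-Hochberg). ASN1, which makes asparagine as a nitrogen carrier in the dark, had 1624, 1663 and 1473 CPM in UV-C treated jac1, against 329, 346 and 391 CPM in UV-C treated wild type, a log2 fold change of 2.16 (SE 0.12). Every jac1 library held more than 3 times the CPM of any wild-type library. BGAL4, a beta-galactosidase, was higher by 2.3 on the log2 scale (SE 0.15), and the trehalose phosphate synthase-like genes TPS8, TPS9, TPS10 and TPS11, targets of sugar signalling, were higher by 1.35, 1.38, 1.46 and 1.91.

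Enzymes that break down leucine, isoleucine and valine for fuel were looked at after these values had been seen. Of 10 tested, 4 were called higher and 1 lower (2.53% and 1.69% of all genes were), with a median of 0.87, against a median of 0.00 without UV-C. BCAT-2, the mitochondrial aminotransferase that takes the first step, had 55.3, 47.1 and 37.1 CPM in UV-C treated jac1, against 8.80, 9.06 and 12.5 CPM in UV-C treated wild type (log2 fold change 2.21, SE 0.16). MCCA, a subunit of methylcrotonyl-CoA carboxylase, was higher by 1.72, AT1G21400, a subunit of the branched-chain keto acid dehydrogenase, by 1.68, and IVD, isovaleryl-CoA dehydrogenase, by 1.55. AT5G09300, which encodes a thiamine diphosphate-binding protein of the same dehydrogenase family, was called lower at -1.32. MCCB at 0.80, BCE2 at 0.79 and DIN4 at 0.94 had all jac1 libraries above all wild-type libraries but were under the fold minimum. The genotype difference of BCAT-2 was -0.37 in NT plants, and the treated and NT differences themselves differed by 2.58 (SE 0.24, adjusted p of the interaction 6.06e-06, edgeR quasi-likelihood test, Benjamini-Hochberg).

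SIS, a salt-induced serine-rich gene, had 113, 126 and 140 CPM in UV-C treated jac1, against 6.61, 9.78 and 8.73 CPM in UV-C treated wild type. This was the smallest adjusted p of the named genes (5.84e-10, edgeR quasi-likelihood test, Benjamini-Hochberg), with a log2 fold change of 3.92 (SE 0.13). MYBL2, a repressor of flavonoid genes, had 129, 136 and 130 CPM in UV-C treated jac1, against 17.9, 20.4 and 18.3 CPM in UV-C treated wild type, a log2 fold change of 2.80 (SE 0.12) with tight replicates in both groups. In NT plants the difference for MYBL2 was 0.01. None of the 16 flavonoid and phenylpropanoid genes tested was called by the edgeR quasi-likelihood test or by the DESeq2 Wald test (median -0.34, 6 genes at an unadjusted p under 0.05), and CHS, chalcone synthase, had 14, 31.8 and 30.3 CPM in UV-C treated jac1, against 31.9, 25.3 and 39.0 CPM in UV-C treated wild type, with overlapping groups.

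**Figure D2:**
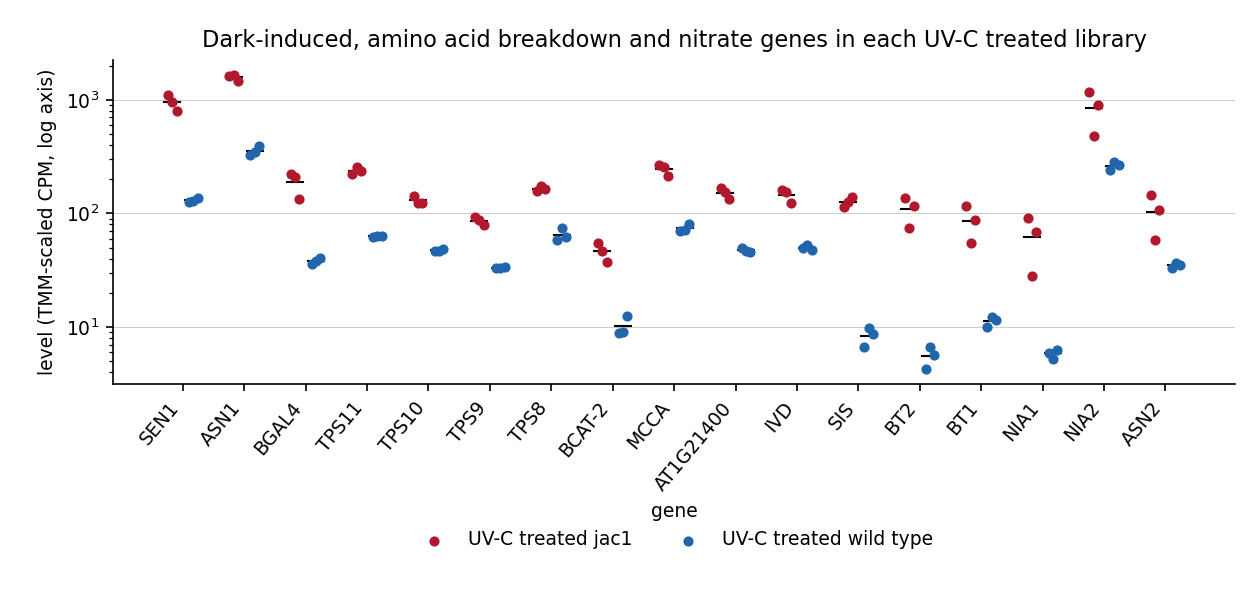
Dark-induced, amino acid breakdown and nitrate genes, and the salt-induced SIS, in single libraries (points, CPM on a log axis), UV-C treated jac1 left of UV-C treated wild type for each gene and the mean of each group as a dash. The genes shown were all called higher, and AT5G09300, called lower, and NRT1.1, not called, are not shown. The jac1 points of SEN1 lie between 804 and 1100 CPM and those of wild type between 126 and 137 CPM; for NIA1, NIA2 and BT2 the lowest jac1 point is replicate 2.

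Some nitrate genes were higher as well, with 1 jac1 library below the others. NIA1, one of the nitrate reductases, had 91.5, 28.2 and 68.0 CPM in UV-C treated jac1, against 5.93, 5.27 and 6.32 CPM in UV-C treated wild type, a log2 fold change of 3.43 (SE 0.44, adjusted p = 4.08e-05, edgeR quasi-likelihood test, Benjamini-Hochberg). NIA2, the major nitrate reductase gene, had 1170, 480 and 894 CPM in UV-C treated jac1, against 240, 282 and 267 CPM in UV-C treated wild type (1.69, SE 0.28). Replicate 2 of jac1 was the lowest of its group for both, and for ASN2, BT1 and BT2, yet it lay above every wild-type library in all 5. BT2 and BT1, BTB and TAZ domain proteins that respond to nitrate and sugar, were higher by 4.3 (SE 0.38) and 2.94 (SE 0.23), and ASN2, the second asparagine synthetase, by 1.57. All 5 were called higher without UV-C too, NIA1 at 2.13, NIA2 at 2.42, BT1 at 1.79, BT2 at 1.36 and ASN2 at 1.2. NIR1, nitrite reductase, had a log2 fold change of 0.43 and NRT1.1, the nitrate transceptor, of -0.95, and neither was called under TMM. A nitrate assimilation list, chosen after the values were seen, does not hold all of these genes: its highest value is the 3.43 of NIA1, so BT2 lies outside it. Of its 7 genes 3 were called higher and none lower (2.53% and 1.69% of all genes were).

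In sulfate assimilation 2 genes of the regulated step were lower. APR2 and APR3, adenosine phosphosulfate reductases, had 9.53, 11.2 and 10.5 CPM and 20.7, 15.6 and 15.7 CPM in UV-C treated jac1, against 39.3, 33.8 and 36 CPM and 53.7, 48.0 and 56.1 CPM in UV-C treated wild type. Their log2 fold changes were -1.81 (SE 0.09) and -1.6 (SE 0.13), with no overlap between groups. APR1, the other reductase of this step, was at -0.58 and not called. APR2 and APR3 were the 2 called of 13 sulfate genes tested (4.22% of all genes were called), again a list chosen afterwards. The median of the 13 was -0.41. In NT plants APR2 stood at 0.70 and was not called.

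Several cold- and drought-induced genes were higher as well. Of 11 genes of the CBF and cold list, 6 were called higher and none lower (2.53% and 1.69% of all genes were). The median of the 11 was 1.36 after UV-C and -0.04 without. RD29A, whose product protects against drying and freezing, had 189, 158 and 149 CPM in UV-C treated jac1, against 31.8, 40.3 and 14.6 CPM in UV-C treated wild type. The log2 fold change was 2.51 (SE 0.25, adjusted p = 4.3e-06, edgeR quasi-likelihood test, Benjamini-Hochberg), and in NT plants it was -0.05. COR15A, a chloroplast protein that stabilises membranes on freezing, had 491, 571 and 439 CPM in UV-C treated jac1, against 105, 98.9 and 87.4 CPM in UV-C treated wild type (2.37, SE 0.13), and it was already higher in NT jac1, at 1.54. KIN1, whose near-identical copy KIN2 can share its reads, was higher by 2.5, COR47 by 1.79 and ERD10 by 1.36. LTI30 was higher by 1.95, but with 41.2, 11.9 and 12.4 CPM in jac1 the value rested on replicate 1, and without that library it was 1.1 and not called; the call was also lost without wild-type replicate 1 (2.06) and replicate 3 (1.56).

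None of the 3 CBF genes was called. CBF1 had 9.58, 9.48 and 12.8 CPM in UV-C treated jac1, against 8.16, 9.64 and 10.9 CPM in UV-C treated wild type, and CBF2 had 23.6, 25.9 and 38.6 CPM in UV-C treated jac1, against 19.8, 28.7 and 27.9 CPM in UV-C treated wild type. For both the groups overlapped, and the direction turned with library size alone. CBF3 had 4.13, 5 and 6.19 CPM in UV-C treated jac1, against 2.19, 3.06 and 3.16 CPM in UV-C treated wild type, a log2 fold change of 0.87 (adjusted p = 0.033, edgeR quasi-likelihood test, Benjamini-Hochberg).

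Of 17 genes of ABA synthesis and response, 4 were called higher (2.53% of all genes were). The median of the 17 was 0.76 after UV-C and -0.08 without. With library size alone 2 were higher and 1 lower, and with upper quartile factors 4 and 1. RAB18, an ABA-induced dehydrin, had 15.7, 22.9 and 18.4 CPM in UV-C treated jac1, against 2.01, 3.29 and 3 CPM in UV-C treated wild type (2.78, SE 0.24). In NT plants it stood at -0.79, so that the genotypes were in the opposite order, and that NT difference was not called. RD26, a NAC factor induced by drying, was higher by 2.31, ABF3, a G-box binding ABA response factor, by 1.21, and HAI1, a phosphatase of the ABA feedback, by 1.21. With library size alone ABF3 and HAI1 were both at 0.95 and not called. The call of HAI1 was also lost without jac1 replicate 2 (1.04) or 3 (1.23) and without any wild-type replicate (1.17 to 1.25). NCED3, which catalyses the regulated step of ABA synthesis, had 6.12, 8.90 and 7.33 CPM in UV-C treated jac1, against 10.4, 6.98 and 8.73 CPM in UV-C treated wild type, with overlapping groups. RD29B, the strongly ABA-dependent partner of RD29A, stayed under 1 CPM in all 6 libraries and its groups overlapped.

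**Figure D3:**
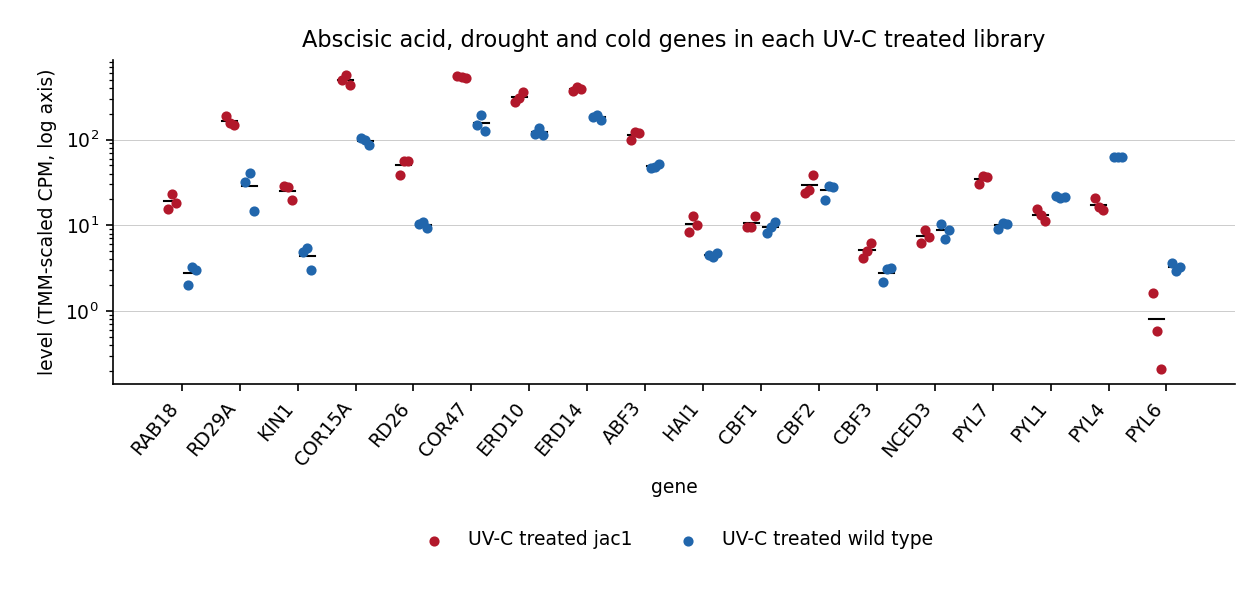
Cold, drought and ABA genes in single libraries (points, CPM on a log axis), UV-C treated jac1 left of UV-C treated wild type for each gene and the mean of each group as a dash. RD29A, COR15A and RAB18 show no overlap between the genotypes; CBF1 and NCED3 overlap.

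Receptors of ABA, taken as a list after the values were seen, split: of 9 PYR/PYL genes tested 1 was higher and 2 were lower (2.53% and 1.69% of all genes were). PYL7 had 30.3, 37.9 and 36.8 CPM in UV-C treated jac1, against 9.03, 10.5 and 10.4 CPM in UV-C treated wild type (1.81, SE 0.11). PYL4 had 20.9, 16.1 and 15.1 CPM in UV-C treated jac1, against 62.0, 62.5 and 62.8 CPM in UV-C treated wild type (-1.84, SE 0.21). PYL6 was at -1.99 from 1.6, 0.582 and 0.208 CPM in UV-C treated jac1, against 3.60, 2.88 and 3.27 CPM in UV-C treated wild type, and its call was lost without jac1 replicate 2 (-1.81) or 3 (-1.53) and without wild-type replicate 1 (-1.92), 2 (-2.07) or 3 (-1.98).

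Further protective genes were higher. RD20, a caleosin induced by drying and chosen here for its promoter after its values were seen, had 63.2, 183 and 83.1 CPM in UV-C treated jac1, against 21.1, 20.8 and 20.6 CPM in UV-C treated wild type (2.39, SE 0.40). The jac1 libraries of RD20 were spread widely and those of wild type hardly at all, and without jac1 replicate 2 the difference was 1.81. GOLS2 and GOLS3, galactinol synthases that start raffinose synthesis, were higher by 1.55 and 1.48, 2 of 8 in their list. GOLS3 was called higher in NT plants too, at 1.71, while GOLS2 stood at 0.28 there and was not called. In the annotation, 56 tested genes name a dehydrin or a late embryogenesis abundant protein. Of the 56, 7 were higher and none lower (2.53% and 1.69% of all genes were), while the median of the 56 was 0.07. With library size alone 4 were higher and 3 lower, and the calls of ERD14, LEA14 and LTI30 were lost. M10, at 1.84 with TMM, lost its call without jac1 replicate 2 (1.89) or 3 (1.67) or wild-type replicate 2 (1.39) or 3 (1.90), as LTI30 did without the libraries named for it. Also among the 7, AT4G38410, a dehydrin, had 55, 23 and 43 reads in UV-C treated jac1, against 1, 3 and 0 reads in UV-C treated wild type.

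Water channels of the plasma membrane were higher in part. Of 13 aquaporins tested, 4 were called higher and none lower with TMM (2.53% and 1.69% of all genes were), and the median was 0.55. With library size alone 4 of the 13 were higher and 2 lower. PIP2;3 had 121, 218 and 142 CPM in UV-C treated jac1, against 47.9, 41.5 and 58.4 CPM in UV-C treated wild type (1.70, SE 0.19), and PIP2;2, PIP1;1 and PIP2;6 were higher by 1.37, 1.35 and 1.32. Without UV-C 2 of the 13 were called higher, PIP2;3 at 1.01 and PIP2;1 at 1.09, and the median was 0.495. PIP1;1 (0.998), PIP2;6 (0.79) and PIP2;2 (0.39) were not called there. PIP2;3 and PIP2;2 are near-identical copies whose reads the counting can split. Of 16 genes of guard cell channels and pumps 2 were called higher, and the median of the 16 was -0.02. CLC-B, a chloride channel, was higher by 1.70, and was called higher in NT plants too, at 2.37. SLAC1, the anion channel that closes stomata, was higher by 1.53, and stood at -0.26 in NT plants, not called. SLAC1 stayed between 0.924 and 1.4 CPM in UV-C treated jac1, against 0.228 to 0.643 CPM in UV-C treated wild type, and its call was lost without jac1 replicate 2 (1.39) and without wild-type replicate 1 (1.22) or 2 (1.45). In whole rosettes, a different share of cells of a type and a different amount of RNA per cell cannot be told apart.

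Part of the light-harvesting antenna genes were higher after UV-C. Of 20 LHC genes tested, 10 were called higher and none lower (2.53% and 1.69% of all genes were), with a median of 0.93. Without UV-C 9 were called higher (1.03% of all genes were), with a median of 0.87. LHCB3, of the trimeric antenna of photosystem II, had 14511, 13178 and 13659 CPM in UV-C treated jac1, against 4927, 5634 and 6022 CPM in UV-C treated wild type (1.32, SE 0.17). LHCA1, of the photosystem I antenna, was higher by 1.34, and the called genes ranged down to LHCA3 at 1.01, which fell under the fold minimum without several single libraries (0.95 to 1). With library size alone, 3 of the 20 were called and the median was 0.66. The LHCB1 and LHCB2 genes are near-identical copies, so their single values are uncertain. LHCB1.1 had a difference of 1.16 after UV-C and 2.56 without, and LHCB2.1, LHCB2.2 and LHCB2.3 had 0.84, 1.08 and 1.29 after UV-C and 2.07, 2.41 and 2.41 without. For these 4 the genotype difference was smaller in treated than in NT plants by the test of the interaction.

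Of 12 genes listed under chloroplast movement only NPH3, a phototropin partner, was called, higher at 1.09 (4.22% of all genes were called). NPH3 was not called without wild-type replicate 1 (0.99), with upper quartile factors (0.993) or with library size alone (0.828). Under either of these scalings none of the 12 was called. PHOT1, the blue light receptor, had 460, 486 and 426 CPM in UV-C treated jac1, against 212, 249 and 245 CPM in UV-C treated wild type, a log2 fold change of 0.96 that missed the fold minimum. PHOT2 had 354, 421 and 342 CPM in UV-C treated jac1, against 331, 352 and 365 CPM in UV-C treated wild type, and its groups overlapped.

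Of 14 genes of light and UV-B signalling 2 were called higher and 1 lower (2.53% and 1.69% of all genes were). PIF4, a phytochrome-interacting factor that drives elongation growth, had 137, 136 and 137 CPM in UV-C treated jac1, against 18.1, 25.7 and 26.9 CPM in UV-C treated wild type (2.54, SE 0.11), and PIF5 was higher by 1.67. Both were also called higher without UV-C, PIF4 at 1.04 and PIF5 at 1.63. ELIP2, an early light-induced protein that binds chlorophyll under stress, had 3.26, 1.80 and 2.81 CPM in UV-C treated jac1, against 21.2, 13.5 and 15.6 CPM in UV-C treated wild type (-2.66, SE 0.30). In NT plants ELIP2 stood at 0.48 and was not called.

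Of 12 morning-phased clock genes 3 were called higher and 1 lower after UV-C (2.53% and 1.69% of all genes were), with a median of 0.82. Without UV-C 5 were called higher (1.03% of all genes were), with a median of 1.18. The 3 called higher after UV-C were PRR7 at 1.76, LNK1 at 1.92 and RVE7 at 1.67, and LNK1 was not called without wild-type replicate 1 (1.89). LNK1 was called higher in NT plants too, at 2.25, while PRR7 (1.24) and RVE7 (0.96) were not called there. RVE2, a MYB factor related to CCA1, had 14.3, 14.6 and 12.5 CPM in UV-C treated jac1, against 84.0, 98 and 81.0 CPM in UV-C treated wild type (-2.67, SE 0.10), the largest fall among genes over 10 CPM that are named here. CCA1 and LHY, the core morning genes, had 405, 413 and 388 CPM and 443, 480 and 457 CPM in UV-C treated jac1, against 362, 370 and 377 CPM and 656, 671 and 645 CPM in UV-C treated wild type. Neither was called after UV-C. CCA1 was at 0.12. LHY was at -0.52 (adjusted p = 0.00346, edgeR quasi-likelihood test, Benjamini-Hochberg) and missed only the fold minimum, with all jac1 libraries below all wild-type libraries. Without UV-C CCA1 was at 1.74 and LHY at 1.57.

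Of 14 evening-phased clock genes 2 were called higher and 3 lower after UV-C (2.53% and 1.69% of all genes were), with a median of -0.46. Without UV-C 8 were called lower (0.915% of all genes were), with a median of -1.57. GI, a scaffold protein of the evening, had 3.45, 4.07 and 4.32 CPM in UV-C treated jac1, against 0.912, 0.766 and 0.750 CPM in UV-C treated wild type (2.27, SE 0.47). PRR5, a clock repressor, was higher by 1.26 after UV-C and at -3.88 without. PRR3, BOA and COR28 were lower at -2.37, -1.90 and -1.83, and COR28 was not called without jac1 replicate 2 (-1.49) or 3 (-1.61) or wild-type replicate 2 (-1.74) or 3 (-1.78). TOC1, at -0.36 after UV-C, was at -1.87 without. CO, the photoperiodic flowering regulator, was lower at -2.5, and was not called without jac1 replicate 1 (-2.53) or 3 (-1.92) or wild-type replicate 1 (-2.28) or 3 (-2.33). PRR3, BOA, COR28 and CO were called lower in NT plants too, at -1.61, -1.69, -3.34 and -1.44. COL9, a repressor of CO, had 6.17, 6.63 and 6.45 CPM in UV-C treated jac1, against 25.7, 29.3 and 28.5 CPM in UV-C treated wild type (-2.12, SE 0.12). Of 15 B-box factor genes only BBX28 was called (4.22% of all genes were). It was at 1.4 (adjusted p = 0.00962, edgeR quasi-likelihood test, Benjamini-Hochberg), and in most fits that left out 1 library it was not called. The hour of harvest was not given in the sources used here, and its part in these differences was not tested.

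Among the 12 largest rises by the naming rule, AT1G75945 was the largest, with 7.10, 6.05 and 7.59 CPM in UV-C treated jac1, against 0.228, 0.0901 and 0.214 CPM in UV-C treated wild type (5.27, SE 0.29). Its difference without UV-C was 5.28. It lies on chromosome 1 at 28515245 to 28515916, and within 0.5 Mb of JAC1 3.23% of genes were called, against 4.22% of all. ERF53, an AP2/ERF factor of drought response, had 3.26, 4.89 and 7.59 CPM in UV-C treated jac1, against 0.0456, 0.270 and 0.161 CPM in UV-C treated wild type (5, SE 0.66). AT4G28140, another AP2/ERF factor gene, was higher by 4.73, ST2A, a hydroxyjasmonate sulfotransferase, by 3.67, and EXPA16, an expansin that loosens cell walls, by 3.13. EXPA16 had 50.1, 73.9 and 68.5 CPM in UV-C treated jac1, against 5.33, 8.52 and 8.20 CPM in UV-C treated wild type, and stood at -0.87 without UV-C. DIN11, a dark-inducible oxygenase, had 1.57 to 2.03 CPM in UV-C treated jac1, against 0.0536 to 0.410 CPM in UV-C treated wild type (3.27, SE 0.45), and AT4G37220, a cold acclimation protein of the WCOR413 family, was higher by 2.95.

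Among the largest falls, AT5G37940, AT5G22430 and AT5G33370 (-4.63, -3.67 and -3.21) were lowly expressed and lower without UV-C too (-6.67, -5.12 and -3.81). AT5G37940, a zinc-binding dehydrogenase, had 12 CPM in wild-type replicate 2 beside 1.14 and 2.79 CPM, and without that library its log2 fold change was -3.16. AT5G33370, a GDSL lipase, was not called without jac1 replicate 1 (-2.58) or 2 (-3.22) or wild-type replicate 1 (-3.24) or 2 (-3.02). AT5G22430 had 0.0486, 0.116 and 0.312 CPM in UV-C treated jac1, against 1.96, 2.43 and 1.77 CPM in UV-C treated wild type. Flower organ identity genes moved with them: AP1 had 1, 0 and 1 reads in UV-C treated jac1, against 7, 9 and 18 reads in UV-C treated wild type, AP3 had 1, 1 and 1 reads in jac1 against 3, 14 and 12 in wild type, and AGL9 had 5, 2 and 2 in jac1 against 25, 25 and 15 in wild type. The flower and pollen markers summed to 0.728 to 0.989 CPM in UV-C treated jac1 and 2.92 to 3.97 CPM in UV-C treated wild type. After UV-C the call of AP3 was lost without any 1 UV-C treated jac1 replicate or without UV-C treated wild-type replicate 2 or 3 (adjusted p of 0.0266 to 0.0351, edgeR quasi-likelihood test, Benjamini-Hochberg), and that of PI, at -1.42, was lost without jac1 replicate 1 (-1.43) or 3 (-1.2) or wild-type replicate 1 (-1.53) or 2 (-1.14). The part of these markers in the 3 falls was not tested. Of the other named falls, PTR4, a peptide transporter, had 4.18, 4.60 and 4.16 CPM in UV-C treated jac1, against 23.5, 17.3 and 18.5 CPM in UV-C treated wild type (-2.20, SE 0.12), with 0.01 without UV-C. AT1G06830, a glutaredoxin, was at -2.29, AGP41, an arabinogalactan protein, at -2.18, and GBF6, a bZIP factor, at -2.12. AT3G28500, a ribosomal stalk protein, was at -2.23, and at -4.38 without UV-C.

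Of 24 XTH and expansin genes of the cell wall 3 were higher and 3 lower (2.53% and 1.69% of all genes were). XTH31 at 1.39, XTH17 at 1.17 and EXPA16 were higher, and XTH15 at -1.57, XTH16 at -1.13 and EXPA15 at -1.15 were lower. Single libraries decided 4 of these calls: XTH31 was not called without wild-type replicate 2 (1.23), nor XTH16 (-0.98), nor EXPA15 without wild-type replicate 1 (-0.91), and XTH17 lost its call without wild-type replicate 1 (0.98) or 2 (0.99) or jac1 replicate 2 (1.18) or 3 (1.12). Of 14 auxin response genes 2 were called (4.22% of all genes were), the repressors IAA29 and IAA14, higher by 1.42 and 1.21. With library size alone 1 of the 14 was higher and 1 lower. Of 6 brassinosteroid genes 1 was called, BAS1, which inactivates the hormone, higher by 1.31. IAA29 was not called without wild-type replicate 1 (1.3).

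In the lists of oxidative stress and defence the calls were of single genes, beside the 4.22% called over all genes. Of 20 antioxidant enzymes only CAT3, a catalase, was called with TMM, with 3216, 3564 and 2850 CPM in UV-C treated jac1, against 1362, 1520 and 1598 CPM in UV-C treated wild type (1.1, SE 0.09), and the median of the 20 was -0.03. Of the 20, 14 had an unadjusted p under 0.05 by the edgeR quasi-likelihood test. In 7 of the 20 all jac1 libraries lay above all wild-type libraries (26.9% of all genes tested did), and in 7 all lay below (24.0%). With library size alone CAT3 was not called and 1 other gene of the list was called lower. Of 25 genes of salicylic acid and immunity only FRK1, a receptor kinase of early immunity, was called (1.56, from 5.10, 2.91 and 3.02 CPM in UV-C treated jac1, against 1.78, 1.08 and 0.857 CPM in UV-C treated wild type). Of 20 jasmonate genes only AOC1 was called, at 1.14, and without jac1 replicate 2, which had 79.6 CPM beside 24.3 and 43.3 CPM, it was 0.61. The calls of AOC1 and FRK1, with adjusted p of 0.0085 and 0.00776 (edgeR quasi-likelihood test, Benjamini-Hochberg), were lost in most fits that left out 1 library (0.61 to 1.22 for AOC1 and 1.24 to 1.70 for FRK1 where lost). Of 12 ethylene genes only ORA59, an ERF of jasmonate and ethylene defence, was called, at -2.48, and of 6 ZAT zinc finger genes only ZAT8, at 1.32. None of 13 heat shock, 13 glucosinolate, 10 calcium, 12 starch, 15 chlorophyll and 12 DNA damage and repair genes was called by the edgeR quasi-likelihood test with TMM, with medians of -0.28, 0.05, 0.22, -0.10, 0.42 and -0.31. At an unadjusted p under 0.05 these lists held 4, 3, 3, 9, 12 and 5 genes, and the DESeq2 Wald test called 1 heat shock gene and 1 repair gene lower. The heat shock gene HSP18.2 had 2.33, 1.86 and 1.77 CPM in UV-C treated jac1, against 4.1, 3.38 and 4.50 CPM in UV-C treated wild type, and its -0.997 (adjusted p = 0.000719, edgeR quasi-likelihood test, Benjamini-Hochberg) fell just short of the fold minimum. It was called lower in 15 alternative fits, at -1.01 to -1.26. UVR2, the photolyase of UV-induced pyrimidine dimers, had 10.3, 10.6 and 11 CPM in UV-C treated jac1, against 8.85, 8.79 and 9.91 CPM in UV-C treated wild type, a difference of 0.22 (SE 0.13) that turned with library size alone.

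**Figure D4:**
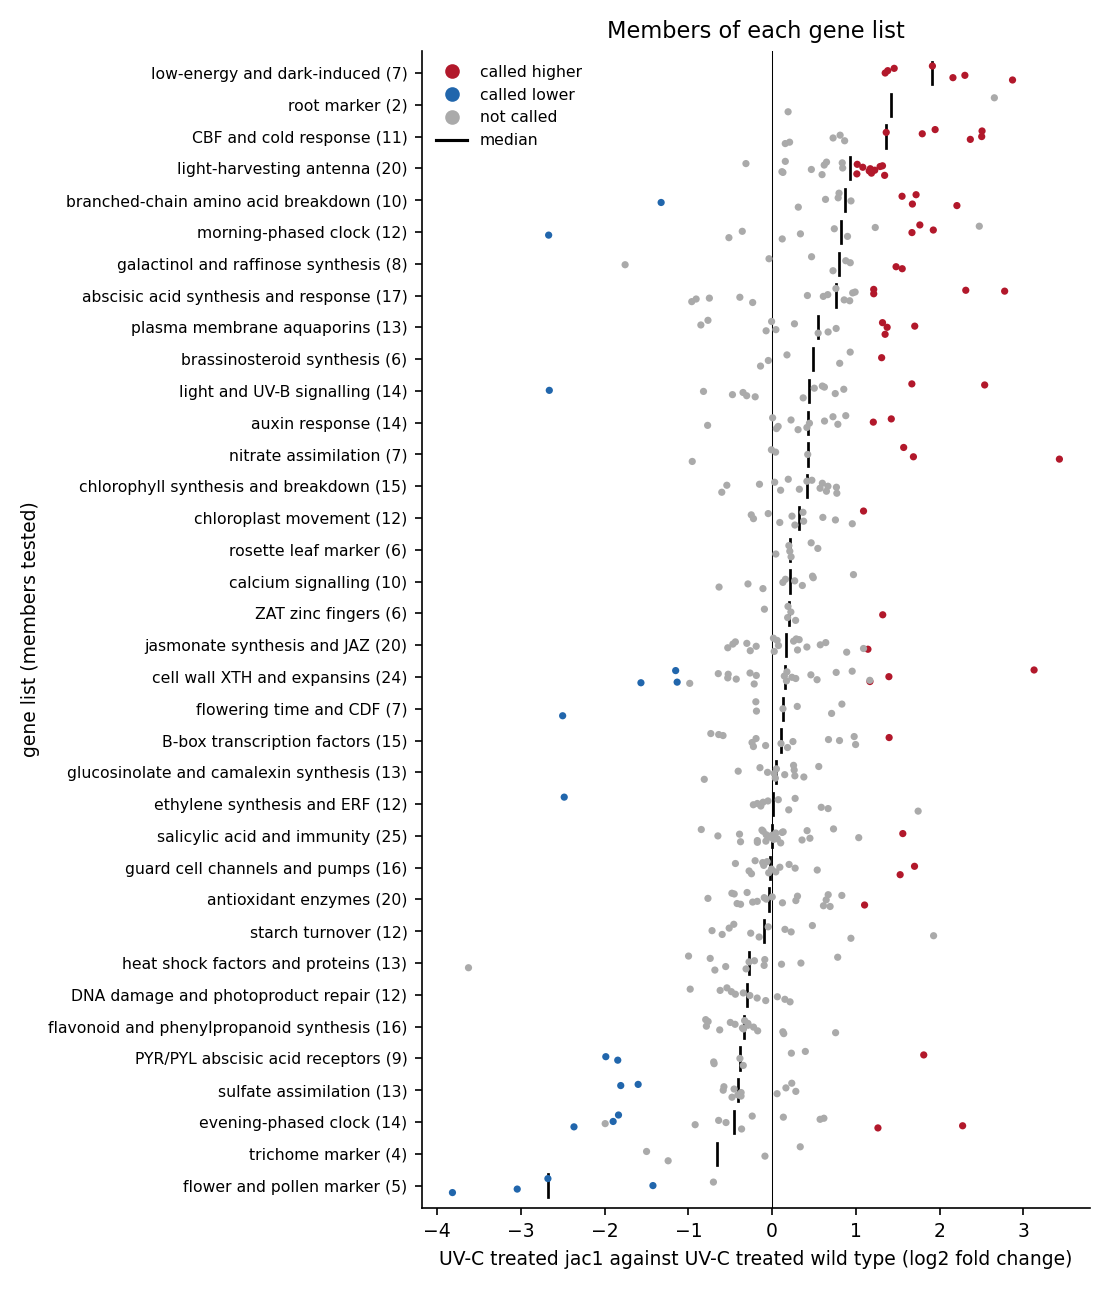
Log2 fold change, UV-C treated jac1 over UV-C treated wild type, of each gene tested in each functional list (points, coloured where called), with the list's median as a short bar and a line at 0. All 7 low-energy and dark-induced genes lie right of 1, while the antioxidant genes centre on -0.03.

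The same contrast in NT plants, which shares no sample with the treated one, called 207 genes higher in jac1 (1.03%) and 183 lower (0.915%). Of the 845 genes called after UV-C, 118 were also called without it, 14% of the 845 and 30.3% of the 390 called in NT plants, where 1.95% of all genes tested were called. Of the 118, 93 had the same direction and 25 the opposite one. The 507 higher genes had a median of 0.20 without UV-C and 328 of them (64.7%) were above 0, and the 338 lower genes had a median of -0.37 and 248 (73.4%) were below 0. By the test of the difference itself, 783 genes (3.91%) had a genotype by UV-C interaction, among them 244 of the 507 higher genes (48.1%) and 99 of the 338 lower genes (29.3%) in the direction of their call. The interaction uses the same treated libraries as the call, so these shares are a description. The 507 had a median UV-C response of 1.48 within jac1 and 0.23 within wild type, and the 338 of -1.02 within jac1 and 0.12 within wild type, again with samples shared.

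**Figure D5:**
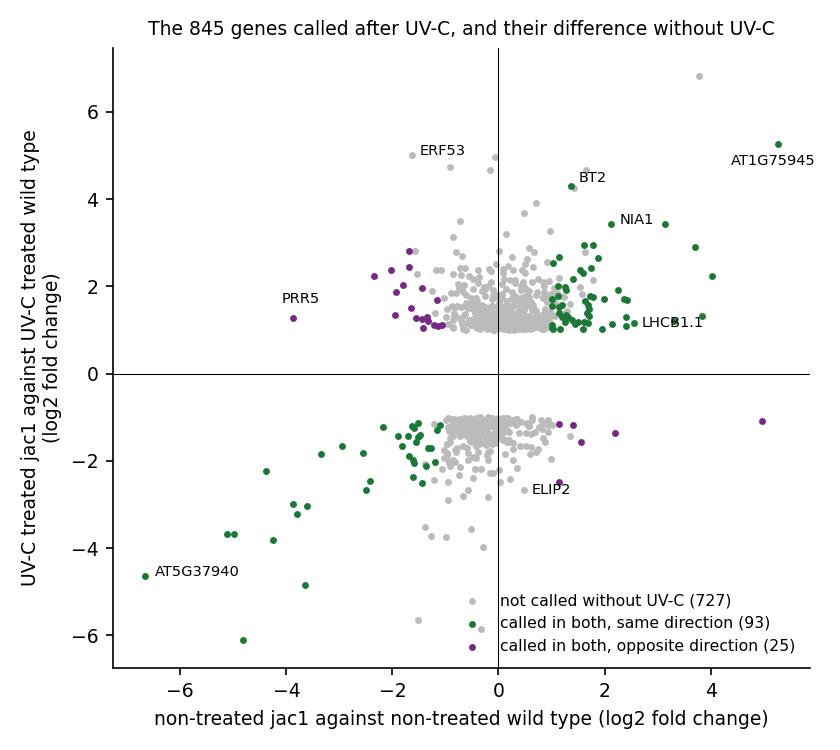
Log2 fold change of jac1 over wild type after UV-C (vertical axis) and without UV-C (horizontal axis) for the genes called after UV-C, each a point, coloured by whether it was also called without UV-C. AT1G75945 lies at 5.27 after UV-C and 5.28 without, and ERF53 at 5 and -1.63.

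The called genes were spread over the genome, with 4.29, 4.29, 3.63, 4.76 and 4.25% of the tested genes called on chromosomes 1 to 5. Within 1 Mb of JAC1 2.97% were called, and within 2 Mb 2.88%.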

How the data were processed

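The deposited table held read counts per gene. Per the labels and the file header, the authors aligned reads of stranded poly-A libraries with STAR 2.5.2b and counted exon reads per Araport11 gene with featureCounts (Subread 1.6.2), with no strand or multi-mapping option set, so antisense, overlapping and near-identical genes can share or lose reads. Groups followed the labels, and no library column was left unused. Here, the 20009 nuclear protein-coding genes that reached 5 reads in 3 or more of the 12 libraries were fitted in edgeR 4.0.16 (R 4.3.3) with TMM factors, 1 mean per group over the 12 libraries, and the two-sided quasi-likelihood test, adjusted by Benjamini-Hochberg across the 20009. A DEG had an adjusted p under 0.01 and an absolute log2 fold change over 1. The fit was tested on simulated data. CPM values are counts per 1000000 reads of the TMM-scaled library. The precision of a gene's value is set by its reads and by the spread between libraries of pooled rosettes.

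The comparison without UV-C and the genotype by UV-C interaction came from the same fit. Gene identifiers were matched to RefSeq TAIR10.1 for names, coordinates and promoters, with 37517 of the 37813 genes of the table found. The named genes were JAC1, the 12 largest rises and 12 largest falls among DEGs with at least 1 CPM on average and groups that do not overlap, the DEGs of each functional list or else up to 4 members with the lowest p, and members a list's description needs; the genes the study's text names for jac1 were also covered. The genes compared, the 32 lists and the rules were chosen with earlier results of these data known, and 4 lists and the annotation families were added after the values were seen. Alternatives were DESeq2 1.42.0 (Wald test, size factors), edgeR's likelihood ratio test and glmTreat, upper quartile factors, library size alone, other filters and thresholds, the treated libraries alone, 2 replicate blocks, and leaving out each library. No set test was run. Fold changes of genes with a group at 3 or fewer reads per library were not used as bounds.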

Additional observations from a re-analysis of the deposited data

Results flagged for a closer look

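For 57 named genes the genotype difference was not the same in UV-C treated and in NT plants, by the test of the interaction (edgeR quasi-likelihood test, Benjamini-Hochberg adjustment, treated minus NT difference of jac1 over wild type on the log2 scale). Over all genes tested 3.91% passed. Most named genes were chosen as DEGs of the treated comparison, which is 1 side of the interaction, so their number is fixed in part by that choice and nothing is read from it. The treated libraries held 88.8 to 91.8% nuclear protein-coding reads and the NT libraries 99.1 to 99.2%, and the part of this in the values was not tested.

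The difference was more positive after UV-C for the transcription factor genes ERF53 (6.64), AT4G28140 (5.65), MYBL2 (2.79), RD26 (1.81) and PIF4 (1.5), and for the clock genes PRR5 (5.15), GI (3.81) and TOC1 (1.51). It was more positive for the cold, drought and ABA genes RAB18 (3.57), RD29A (2.56), KIN1 (2.0), COR47 (1.89), PYL7 (1.85), ERD14 (1.63), LEA14 (1.54), ERD10 (1.41) and AT4G37220 (1.35). Among genes of low energy and amino acid breakdown it was more positive for BCAT-2 (2.58), SEN1 (2.3), BGAL4 (2.21), IVD (1.56), TPS11 (1.49), AT1G21400 (1.31), TPS10 (1.31) and MCCA (1.21). The others on this side were EXPA16 (3.99), SIS (3.20), BT2 (2.94), XTH31 (2.23), SLAC1 (1.79), IAA29 (1.77), CAT3 (1.59) and NPH3 (1.08).

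The difference was more negative after UV-C for ELIP2 (-3.14), for the ABA receptor gene PYL4 (-2.43), for the sulfate reductases APR2 (-2.51) and APR3 (-1.28), for the cell wall genes XTH15 (-2.44) and XTH16 (-2.0), and for the morning clock genes LHY (-2.09), RVE2 (-2.08) and CCA1 (-1.62). It was more negative for the antenna genes LHCB1.1 (-1.40), LHCB2.2 (-1.33), LHCB2.1 (-1.22) and LHCB2.3 (-1.12), and for the calcium and touch genes CML23 (-1.91), AT5G54130 (-1.25), TCH2 (-1.12) and MSS3 (-1.01). The others were ORA59 (-2.51), PTR4 (-2.21), AT1G06830 (-2.13), AGP41 (-1.74), GBF6 (-1.20), HSP18.2 (-1.15) and FLS1 (-1.08).

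Outside the genes that code for protein, 6 nuclear genes were called higher and 31 lower in UV-C treated jac1, of 1120 tested (median log2 fold change -0.37). Of the 20009 nuclear protein-coding genes in their own fit, 2.53% were higher and 1.69% lower. None of 140 chloroplast and mitochondrial genes was called by the edgeR quasi-likelihood test (median 0.16, 26 at an unadjusted p under 0.05). The counts for these 1120 and 140 genes came from a separate fit of all 21281 genes, of any kind, with enough reads.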

How the results depend on the processing

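The 845 DEGs and their 60.0% share of higher genes became 1279 and 22.9% with library size alone, and the share was 45.9% with upper quartile factors; 141 (82.3% higher) passed glmTreat against a log2 fold change of 1, and 5643 passed an adjusted p under 0.01 with no fold minimum. Leaving out 1 library gave 689 to 864 DEGs and shares of 58.6 to 63.2%. The same-numbered treated libraries did not deviate together (correlations of -0.04, -0.18 and -0.05 over 17397 genes), so the replicate numbers were not taken as pairs; with a replicate block by title number 840 genes were called, and by library name number 724. Without UV-C, 390 genes were called, 192 with the library name block and 297 to 409 leaving out 1 library. The interaction passed for 783 genes, for 589 with the library name block and for 668 to 779 leaving out 1 library. Its 427 higher and 356 lower genes became 301 and 536 with library size alone. These alternatives were chosen after seeing the data. Of 159 named genes, 125 kept direction and side of the threshold with library size alone, 20 lost the call and 6 gained it. Direction turned with library size alone for CBF1 (-0.10), CBF2 (-0.0507), CCA1 (-0.14), PHOT2 (-0.17), PYK10 (-0.07), SARD1 (-0.24), TCH3 (-0.14) and UVR2 (-0.0491), none of them called. It turned for PHOT2 with upper quartile factors (-0.0087) and without jac1 replicate 2 (-0.0048, and at most 0.149 without another library), for CBF1 (-0.0017, at most 0.257) and CBF2 (-0.038, at most 0.347) without jac1 replicate 3, and for AT5G54130 with the library name block (0.052). SARD1 was -0.0085 with the DESeq2 Wald test, -0.0075 with size factors, -0.034 with the likelihood ratio test, -0.0199 with the title block, -0.0796 with upper quartile factors, and -0.224 to 0.203 leaving out 1 library. Beyond the scaling, the cause of these changes was not tested. Genes under about 1 CPM rest on few reads per library.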

Other observations

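Among families read from the annotation after the values were seen, 252 tested genes name a pentatricopeptide repeat protein, of the kind that processes organelle RNA. Of these 1 was called higher and 8 lower in UV-C treated jac1. Both directions together were near the 4.22% of all genes, of which 2.53% were higher and 1.69% lower. The median log2 fold change of the 252 was -0.36 with 217 of them below 0, against a median of -0.01 over all genes. Without UV-C the median of the family was -0.02. Kinesins (27 genes, median -0.39, none called by the edgeR quasi-likelihood test, 17 at an unadjusted p under 0.05, and 1 called lower by the DESeq2 Wald test) and cyclins (69 genes, median -0.30, 1 higher and 1 lower) also lay below the median of all genes. The 313 ribosomal protein genes had a median of -0.07, with 2 called lower. By summed exon length, 5.55% of genes under 1000 bases and 2.46% of those over 3000 bases were called.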
